A study of Mus musculus with 6 samples.

Results

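The 10 genes that restrain signalling by the T cell receptor (TCR) were followed in regulatory T cells (Tregs): Ptpn22, Ptpn6, Ptpn2, Ubash3a, Csk, Cd5, Cd6, Cblb, Dgka and Laptm5. They were chosen by name, and all 10 were found among the 23725 genes of the deposited tables. The Tregs came from lymph nodes of C57Bl/6 mice, all immunised with the myelin protein MOG (myelin oligodendrocyte glycoprotein). The design sets wild-type mice (WT), in which MOG is a self protein, against mice lacking MOG in the whole animal (MOG KO). Each genotype had 3 libraries, made from 500 cells each, and the labels do not say whether each library is a separate mouse. P-values therefore measure the spread between these libraries, part of which may be technical. The ages and sexes of the mice, and how the Tregs were sorted, are not given in the labels.

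A TCR signal begins when the kinases Lck and Fyn phosphorylate the receptor's CD3 chains and the kinase Zap70 is recruited. Negative regulators act at each step. Some lower the activity of Lck, some remove phosphate from the receptor or from Zap70, some mark signalling proteins for destruction, and some remove the lipid messenger diacylglycerol. In Tregs this balance matters because their development and their suppressive function both depend on the TCR, and loss of several of these regulators leads to autoimmunity in mice.

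Gene counts per library ran from 2717969 to 4472549. Values are given in reads-per-million of the library's gene counts (RPM), for WT replicates 1, 2 and 3 and then MOG KO replicates 1, 2 and 3. From 10 RPM upward a gene is described as present. A count of 0 allows a level of up to 3 counts, or 0.671 to 1.1 RPM depending on the library. Such limits cover counting error alone, because the reads carry no molecular identifiers. Mog itself had 1 count in WT replicate 1 and 0 in the other 5 libraries, which gives no check of the genotype labels. Of 7 T cell and Treg markers in the tables, Cd3e, Cd4, Il2ra, Ikzf2 and Ctla4 were present in all 6 libraries. WT replicate 3 stood apart, with Foxp3 at 8.22 RPM against 326 to 690.2 RPM elsewhere and Cd3g at 1.42 RPM against 177.5 to 272 RPM. It also had 34.2% of the 7909 genes that were present in at least 1 library, against 41.3% to 56.1% in the other 5. All 6 CD8 T cell and natural killer cell markers had 0 counts in every library. The summed level of 7 B cell markers was 2.94 to 207 RPM in WT and 0 to 130.2 RPM in MOG KO. Cd79a and Pax5 were at 0, and only Cd79b and Ms4a1 were present in any library. Cd79b was read at 205.5 RPM in WT replicate 2 and 129.5 RPM in MOG KO replicate 2, and Ms4a1 at 87.3 RPM in WT replicate 3. The sum of 9 myeloid markers was 28 to 180.3 RPM in WT and 16.8 to 311 RPM in MOG KO. Cst3 reached 166.7 RPM in WT replicate 3, and Cd68 reached 188 RPM in MOG KO replicate 2. For 7 erythroid and platelet markers the sum was 69.7 to 151.4 RPM in WT and 20.6 to 67.5 RPM in MOG KO, so that the genotypes did not overlap. Pf4 and Ppbp had 0 counts in all libraries, and globin transcripts made up most of the sum. The part of such RNA in the differences between genotypes was not tested. Regulators such as Laptm5 and Ptpn6 are also expressed by B and myeloid cells. The part of other cells in the values of the 10 regulators was not tested. In such bulk samples, fewer cells carrying a transcript and less RNA per cell cannot be told apart. Gaps were common, since 7205 of the 7909 genes were present in some libraries and under 10 RPM in others. Cd247, a gene of the TCR pathway, was read at 1.16 RPM in MOG KO replicate 1 and at 213 to 384 RPM elsewhere. The part of technical loss in such low or 0 values was not tested, so they do not show absence of expression.

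Across the 10 regulators, 4 were present in every library (Cd5, Cd6, Dgka and Laptm5) and 6 were present in some libraries and under that limit in others. None passed the test between genotypes. In edgeR's quasi-likelihood test 0 of the 9 regulators tested had an adjusted p (Benjamini-Hochberg) under 0.05, as did 0 (0%) of all 4088 genes tested. At an unadjusted p under 0.05 there was 1 of 9, Ptpn22, where 5.11% of all genes tested had such a value. Ptpn2 did not pass the filter on low counts, since 953 of its 955 counts were in 1 library. The 9 values were positive for 4 and negative for 5 genes, with a median of -0.36 on the log2 scale (MOG KO minus WT), beside a median of 0.06 over all genes tested. DESeq2, run as an alternative, put 1 regulator past an adjusted p of 0.05, again Ptpn22, where it did so for 744 genes or 15.9% of those it tested. Limma-voom put 0 genes past it. All 3 WT libraries lay above all 3 MOG KO libraries for Ptpn22, as they did for 4.57% of all genes tested. The reverse order held for Csk, as it did for 5.97% of all genes tested.

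**Figure D1:**
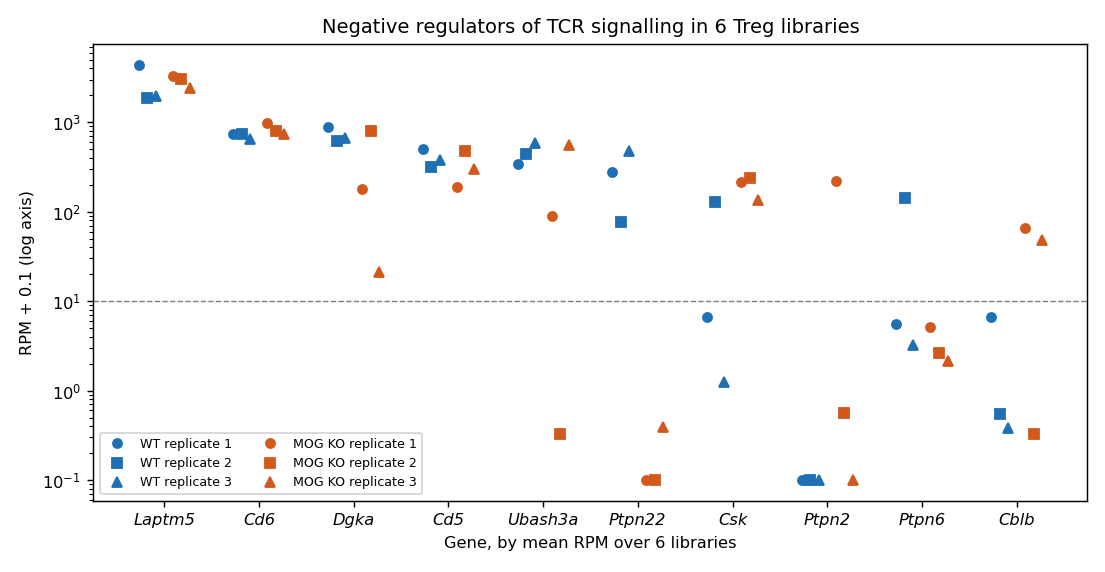
RPM plus 0.1 (log axis) of the 10 regulators in each of the 6 libraries, blue for WT and orange for MOG KO, with the marker shape giving the replicate. The dashed line is the 10 RPM limit of presence, and the genes to the left (Laptm5, Cd6, Dgka, Cd5) stay above it in all 6 libraries while those to the right fall below it in 1 to 5.

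Ptpn22 and Csk belong together in textbook accounts. Csk is the kinase that phosphorylates the inhibitory tyrosine of Lck, and Ptpn22 is a phosphatase that binds Csk and removes phosphate from the activating tyrosine of Lck and from Zap70. Ptpn22 was read at 277, 77.6 and 480.5 RPM in the WT libraries and at 0, 0 and 0.29 RPM in the MOG KO libraries. The WT libraries thus spread over several fold among themselves, and every one lay far above the MOG KO libraries, which held 1 count in all against 2796 in WT. The pooled WT over MOG KO ratio was 3167, with a counting interval (exact, 95%) of 568 to 125121 that leaves out the spread between libraries. Its fitted log2 fold change, -11.23 ± 2.94 (SE, n = 3 per group), depends on how edgeR handles near-zero counts. Its adjusted p was 0.602 in edgeR and 0.000967 in DESeq2, and ran from 0.000967 to 1 over all alternatives.

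Csk was read at 6.62, 127 and 1.13 RPM in the WT libraries and at 215, 236 and 136 RPM in the MOG KO libraries. It was present in every MOG KO library and in WT replicate 2 alone among the WT libraries, so that the highest WT value came close to the lowest MOG KO value. The log2 fold change was 2.14 ± 2.14 (SE, n = 3 per group; 95% interval -2.84 to 7.12; adjusted p = 1 in edgeR). It was 5.63 without WT replicate 2 and 1.59 without WT replicate 3. Ptpn22 and Csk were both present in 1 of 6 libraries, WT replicate 2. In each of the other 5, 1 of them was present and the other under 10 RPM, with Csk at 6.62 RPM (18 counts) in WT replicate 1. In the MOG KO libraries this restates the level of each gene given above, and how often other pairs of genes show it was not tested. Pag1, the membrane adaptor that brings Csk to the plasma membrane, was read at 1.1, 87.9 and 1.13 RPM in the WT libraries and at 248, 2.75 and 164 RPM in the MOG KO libraries. Pag1 was present in 3 of the 4 libraries in which Csk was.

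The sequences upstream of these genes are shown because theirs were the only genotype groups, among the 10 regulators, that did not overlap in RPM. Each is the 100 bases before the first transcription start that RefSeq gives (GRCm38.p6), read 5′ to 3′ on the gene's own strand, chr3:103859695-103859794 on the plus strand for Ptpn22 and chr9:57653632-57653731 on the minus strand for Csk. Neither window holds a base of the gene's own exons in GENCODE vM21. Capitals mark GGAA and its reverse complement TTCC, the core letters that ETS transcription factors recognise.
Ptpn22: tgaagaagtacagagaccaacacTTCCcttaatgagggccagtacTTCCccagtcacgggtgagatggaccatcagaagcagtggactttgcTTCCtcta
Csk: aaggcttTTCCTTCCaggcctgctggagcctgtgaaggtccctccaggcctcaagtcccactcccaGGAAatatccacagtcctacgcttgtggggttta
Both windows held 3 such matches, while the windows before the other RefSeq start held 2 for Ptpn22 and 1 for Csk. Of the 32851 windows of this length in the table, 11.9% held 3 or more and 66.8% at least 1. TGTGGT, a letter string of RUNX factors, searched on both strands, was in 5.61% of all windows. Among the 13 windows of the 8 regulators with an entry it was in 1, before the other start of Ptpn22. TGTTTA, a forkhead string, was in 4.3% of all windows and in 1 of the 13, at Dgka. A match of letters is a description and does not show binding. Cd6 and Ptpn2 are the regulators without an entry.

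The genes whose RPM followed Ptpn22 most closely over the 6 libraries were Plxnc1, Unc119b and Maea, with Pearson correlations of log2(RPM + 1) of 1, 0.999 and 0.999. Plxnc1, a semaphorin receptor, was read at 177, 46.5 and 260 RPM in the WT libraries and at 0.231, 0.229 and 0.58 RPM in the MOG KO libraries. For Csk they were Tmem134, Paf1 and Sit1 (0.996, 0.995 and 0.994). Sit1 is a transmembrane adaptor that also restrains TCR signalling, and it was read at 3.31, 177 and 0 RPM in the WT libraries and at 173, 255 and 200.3 RPM in the MOG KO libraries. These are the highest correlations among all genes tested, taken over 6 libraries that the genes share, and are given as a description. The pattern of Ptpn22, present in the 3 WT libraries and in no MOG KO library, was shared by 74 of the 7909 genes present in a library, itself included (0.936%). Its mirror image was seen in 53 genes (0.67%), and the pattern of Csk in 83 (1.05%).

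The other phosphatases were present in 1 library each. Ptpn6, which encodes SHP-1, a phosphatase recruited to inhibitory receptors, was read at 5.52, 142 and 3.12 RPM in the WT libraries and at 5.08, 2.52 and 2.03 RPM in the MOG KO libraries. WT replicate 2 stood alone, and the other 5 libraries lay between 2.03 and 5.52 RPM, under the limit of presence but above 0 counts in each. Its fitted log2 difference of -3.95 ± 2.25 (SE, 3 libraries per group; 95% interval -9.19 to 1.29; adjusted p = 1 in edgeR) was -0.47 without WT replicate 2. Ptpn2, which encodes a phosphatase of Lck, Fyn and the JAK and STAT proteins, had 0 counts in all WT libraries and 220.2, 0.459 and 0 RPM in the MOG KO libraries. Of its 955 counts in MOG KO, 953 came from replicate 1, with 2 and 0 in the other libraries. The pooled MOG KO level was at least 281-fold higher than the floor of 3 counts over the WT group, a bound that rests on replicate 1. Being present in WT replicate 2 alone was the pattern of 653 genes (8.26%), and in MOG KO replicate 1 alone of 397 (5.02%).

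Ubash3a and Cblb act on receptor degradation. Cblb is a ubiquitin ligase that sets the need for costimulation, and Ubash3a is a suppressor of TCR signalling that binds ubiquitin and Cbl proteins. Ubash3a was read at 339, 444 and 590.4 RPM in the WT libraries and at 89.9, 0.229 and 559 RPM in the MOG KO libraries. The WT libraries were close together, and MOG KO replicate 2 had 1 count where the highest MOG KO library was within the WT range. Its log2 fold change was -1.14 ± 1.87 (SE, n = 3 per group; 95% interval -5.49 to 3.21; adjusted p = 1 in edgeR), -0.55 without MOG KO replicate 2 and -3.48 without MOG KO replicate 3. Cblb was the least read regulator, at 6.62, 0.447 and 0.283 RPM in the WT libraries and 65.2, 0.229 and 48.4 RPM in the MOG KO libraries. It was present in MOG KO replicates 1 and 3 and in no WT library, and MOG KO replicate 2 and WT replicate 3 held 1 count each. The log2 fold change was 3.9 ± 2.49 (SE, n = 3 per group; 95% interval -1.9 to 9.71; adjusted p = 1 in edgeR), 3.33 without MOG KO replicate 1 and 6.51 without WT replicate 1.

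Dgka, a kinase that converts diacylglycerol and so limits Ras and protein kinase C signalling, was present in every library but unevenly so in MOG KO. It was read at 876, 623 and 675 RPM in the WT libraries and at 182, 808 and 21.2 RPM in the MOG KO libraries. The 3 WT libraries lay within a narrow band, which MOG KO replicate 2 shared and the other 2 MOG KO libraries did not. The highest library was 41.4 times the lowest, a wider range than in 95.9% of the 704 genes present in all 6 libraries, whose median range was 3.75-fold. Its log2 fold change was -1.16 ± 1.12 (SE, n = 3 per group; 95% interval -3.77 to 1.46; adjusted p = 1 in edgeR), and -0.58 without MOG KO replicate 3 and -2.95 without MOG KO replicate 2. Dgka shares 105 bases (3.71%) of its exons with Pmel on the opposite strand, and Pmel was read at 0.462 to 4.59 RPM. Ptpn6 shares 195 bases (7.48%) with the antisense gene Gm20531. The strand setting of the counting is not given in the sources used here, so reads in those bases cannot be assigned.

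The surface receptors Cd5 and Cd6 and the lysosomal protein gene Laptm5 were the evenly read regulators. Cd5 and Cd6 are scavenger receptor family proteins of T cells that recruit inhibitory signalling proteins, and Cd5 is known to track the strength of self recognition. Cd6 was read at 740.3, 748 and 647 RPM in the WT libraries and at 987, 808 and 734 RPM in the MOG KO libraries. Its highest library was 1.53 times its lowest, and only 5.97% of the 704 genes present in all 6 libraries had a narrower range. The log2 fold change was 0.18 ± 0.37 (SE, n = 3 per group; adjusted p = 1 in edgeR), with a 95% interval of -0.68 to 1.04. In RPM the genotypes overlapped for Cd6, and on counts scaled by TMM (edgeR's trimmed mean of M-values) they did not, at 873, 858 and 868 scaled RPM in the WT libraries and 1105, 964 and 881 scaled RPM in the MOG KO libraries. On that scale all 3 MOG KO libraries lay above all 3 WT libraries for 5.58% of all genes tested, and the reverse order held for 4.7%, Ptpn22 among them.

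Cd5 was read at 506, 312 and 376 RPM in the WT libraries and at 191, 474 and 298 RPM in the MOG KO libraries, a 2.65-fold range. The genotypes overlapped, with the lowest and the second highest library both in MOG KO. The log2 fold change was -0.36 ± 0.98 (SE, n = 3 per group; 95% interval -2.63 to 1.91; adjusted p = 1 in edgeR). Laptm5, which encodes a lysosomal protein that promotes degradation of the CD3 zeta chain, was read at 4399, 1875 and 1945 RPM in the WT libraries and at 3277, 3026 and 2388 RPM in the MOG KO libraries. Its highest and its lowest libraries were both WT, and the range was 2.35-fold. The log2 fold change was 0.03 ± 0.33 (SE, n = 3 per group; 95% interval -0.74 to 0.8; adjusted p = 1 in edgeR), and its sign changed with the library left out. Limma-voom, which put 0 genes past the threshold, gave Laptm5 a log2 fold change of 0.6 with an adjusted p of 0.172. In edgeR the intervals of Cd6 and Laptm5 were the narrowest of the 9.

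**Figure D2:**
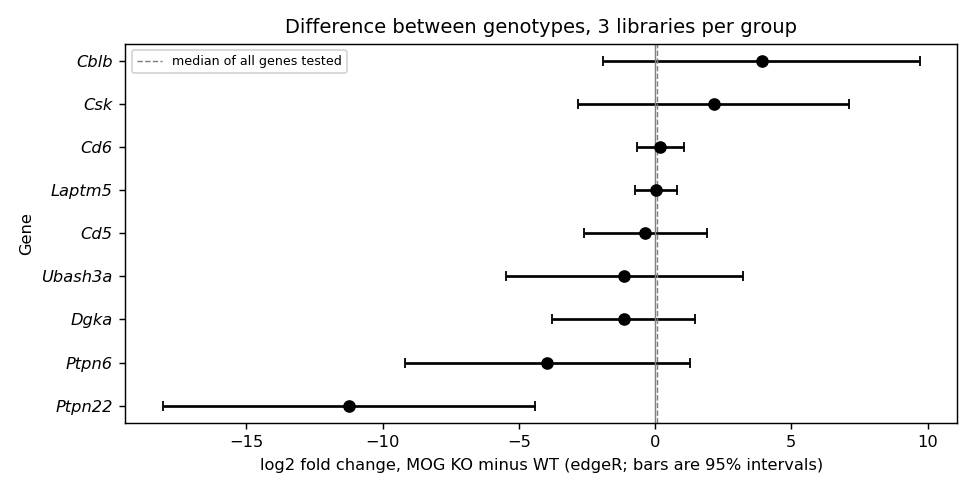
Log2 fold change (MOG KO minus WT) of the 9 tested regulators with 95% intervals from edgeR, n = 3 libraries per group, and a dashed line at the median of all genes tested (0.06). Intervals are narrow for Cd6 and Laptm5 and wide elsewhere, and the value of Ptpn22, with 1 count in MOG KO, depends on how near-zero counts are handled.

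Levels between genes were compared per kilobase of exon (GENCODE vM21, basic transcripts), as the mean over 6 libraries. Laptm5 led at 1084 RPM per kilobase, and its lowest library (721) lay above the highest library of every other regulator. Cd6 followed at 256 (213 to 326), then Dgka at 187 (7.46 to 309) and Cd5 at 115 (61.1 to 162). Cd6 and Cd5 did not overlap over the libraries, while Dgka overlapped both. Ptpn22 (50.8), Ubash3a (44.1), Csk (36), Ptpn2 (12.1), Ptpn6 (10.3) and Cblb (2.86) came next, each with libraries at or near 0, so neighbours in this order do not differ beyond their spread.

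By library, the regulators present numbered 6, 8 and 6 of 10 in the WT replicates, in order, and 8, 5 and 7 in the MOG KO replicates. Over the same libraries 49.6%, 56.1% and 34.2%, then 44.6%, 43.7% and 41.3% of the 7909 genes were present. Leaving out WT replicate 3, the regulators present in all the remaining libraries were again 4, and those whose genotypes did not overlap were Ptpn22, Csk and Ptpn6, where 19.9% of all genes tested did not overlap. At the limit of 10 RPM, Ptpn6, Ptpn2, Csk and Cblb fell under it in WT replicates 1 and 3, and Ptpn2 and Cblb in WT replicate 2. In WT replicate 1, Ptpn6, Csk and Cblb still had 15, 18 and 18 counts, and at a limit of 3 RPM 9 regulators were present there and 7 in WT replicate 3. Ptpn22 and Ptpn6 were under the limit in all 3 MOG KO libraries, joined by Ptpn2, Ubash3a and Cblb in replicate 2 and by Ptpn2 in replicate 3.

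**Figure D3:**
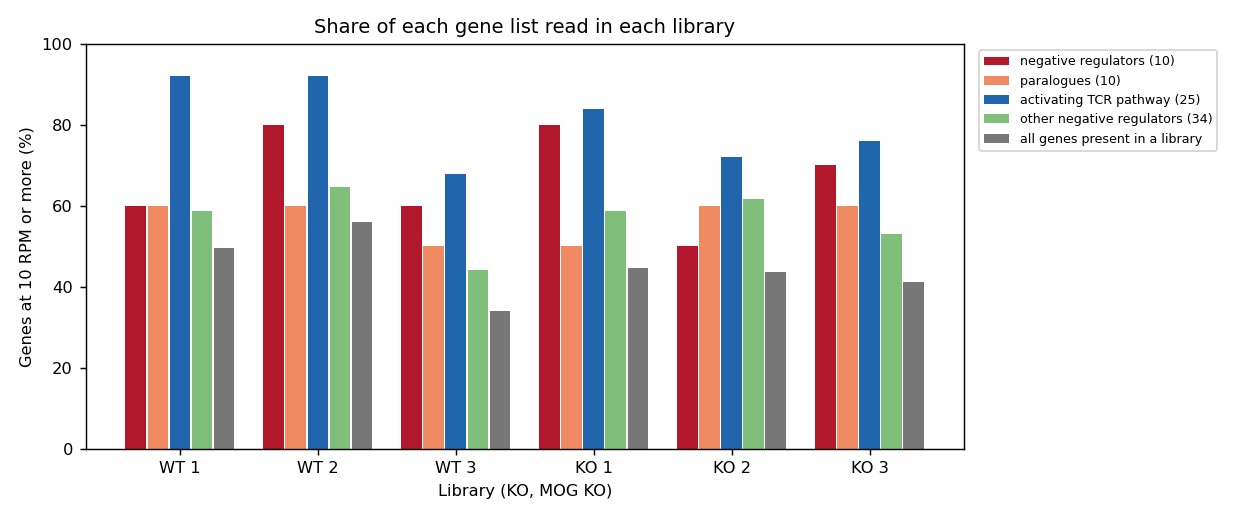
Percentage of genes at 10 RPM or more in each library for the 10 regulators, their 10 paralogues, 25 genes of the activating pathway, 34 other negative regulators and the 7909 genes present in at least 1 library. The activating pathway has the highest bar in every library, from 68% to 92%, and the regulators range from 50% to 80%.

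Of 10 close relatives of the regulators, 1 was present in all 6 libraries, 7 in some and 2 in none, and 0 of 7 tested passed in edgeR, with 0 at an unadjusted p under 0.05 and 0 past the threshold in DESeq2. Ptpn1, the nearest relative of Ptpn2, was present in every library (715, 375 and 410.4 RPM for WT, then 149.5, 377 and 474 RPM for MOG KO), unlike Ptpn2 itself. Ptpn11, which encodes SHP-2, the relative of Ptpn6, was present in WT replicate 3 alone at 194 RPM. Of the relatives of Ptpn22, Ptpn18 was read at 59.6, 83.8 and 97.2 RPM in the WT libraries and at 79.3, 0.229 and 29.8 RPM in the MOG KO libraries, and Ptpn12 reached at most 0.924 RPM in any library. Ubash3b was read at 6.62, 369 and 121 RPM in the WT libraries and at 73.5, 737 and 641 RPM in the MOG KO libraries. It was highest in MOG KO replicate 2, where Ubash3a had 1 count, and the 2 genes were present together in 4 of 6 libraries. Cbl was read at 354, 0.447 and 0.567 RPM in the WT libraries and at 0, 437 and 56.8 RPM in the MOG KO libraries, and was present together with Cblb in 1 library. Matk, the relative of Csk, was read at 439, 172 and 0.567 RPM in the WT libraries and at 0.693, 156 and 68.7 RPM in the MOG KO libraries.

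Dgkz, the other diacylglycerol kinase of T cells, was read at 625, 347 and 3.12 RPM in the WT libraries and at 315, 287 and 174 RPM in the MOG KO libraries. It was low in WT replicate 3, a library in which Dgka was high, and the 2 genes were present together in 5 of 6 libraries. Laptm4a was read at 114, 30 and 237 RPM in the WT libraries and at 225, 113 and 0.58 RPM in the MOG KO libraries, and Laptm4b had 1 count over all libraries. Among the 7 relatives tested 2 values were positive and 5 negative, with a median of -0.33.

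**Figure D4:**
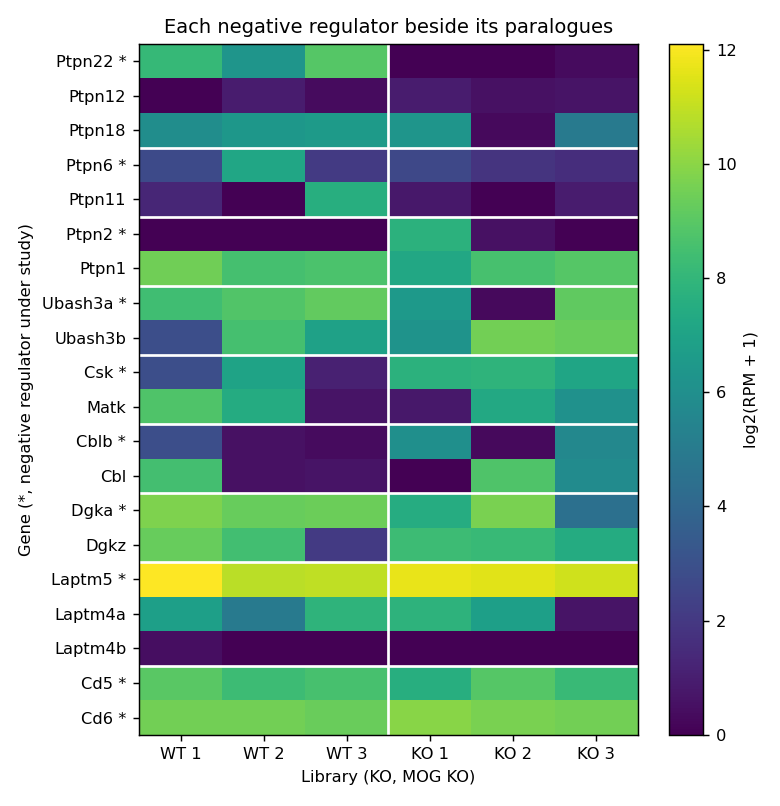
Log2(RPM + 1) of the 10 regulators (starred) and their relatives in each library, WT at the left and MOG KO at the right, with white lines between families. In MOG KO replicate 2 the cell of Ubash3a is dark (0.229 RPM) and that of Ubash3b bright (737 RPM), though both genes were at 10 RPM or more in 4 of 6 libraries. Laptm5, Cd5 and Cd6 are bright throughout.

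Of 25 genes on the activating side of the pathway 13 were present in all 6 libraries, beside 4 of the 10 regulators and 704 (8.9%) of the 7909 genes, with no test made between lists. In edgeR 0 of the 23 tested passed, 0 had an unadjusted p under 0.05, and DESeq2 called 0. Of the fitted values 11 were positive and 12 negative, and the median was -0.09. Ptprc (CD45), the phosphatase that keeps Lck active, was read at 1781, 1147 and 1581 RPM in the WT libraries and at 1329.6, 1293 and 1622 RPM in the MOG KO libraries (fitted log2 difference -0.15 ± 0.28, SE). Lck was read at 794, 641 and 146 RPM in the WT libraries and at 689.5, 559 and 628 RPM in the MOG KO libraries (0.23 ± 0.68), with WT replicate 3 the low library. Cd28, the costimulatory receptor, had -0.36 ± 0.58, Vav1, an exchange factor for Rac, -0.72 ± 0.89, and Cd4, the coreceptor, 0.61 ± 0.67. Lcp2, the adaptor SLP-76, had 0.64 ± 0.74, and Rasgrp1, the diacylglycerol-responsive activator of Ras, was read at 812, 14.3 and 2.27 RPM in the WT libraries and at 775.5, 444 and 1065 RPM in the MOG KO libraries (1.45 ± 1.71, 0.89 without WT replicate 3 and 6.49 without WT replicate 1).

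Among 34 other negative regulators, 9 were present in all 6 libraries, 0 of 22 tested passed in edgeR, and 13 values were positive and 9 negative (median 0.14). In edgeR 1 of the 22 had an unadjusted p under 0.05, and DESeq2, which called 15.9% of all genes it tested, called 2 genes that the edgeR filter left out, Btla and Themis. Btla, an inhibitory receptor, was read at 0.368, 391 and 367 RPM in the WT libraries and at 0, 0.229 and 0 RPM in the MOG KO libraries. All 61 counts of Themis, a regulator of thymocyte signalling, were in WT replicate 3, the library that stood apart. Sla2, an adaptor that limits receptor levels, was read at 162, 0.894 and 0 RPM in the WT libraries and at 269, 224 and 571 RPM in the MOG KO libraries (2.71 ± 2.59, 2.13 without WT replicate 2 and 9.5 without WT replicate 1). Ptpn7, a phosphatase of MAP kinases, was read at 424, 463 and 698 RPM in the WT libraries and at 728, 669 and 895 RPM in the MOG KO libraries (0.45 ± 0.49). Rasal3, which inactivates Ras, had 0.14 ± 0.51, and Inpp5d, the lipid phosphatase SHIP-1, 0.13 ± 0.99. Lax1, an adaptor, was read at 289, 39.8 and 0.283 RPM in the WT libraries and at 3.93, 0.229 and 22 RPM in the MOG KO libraries (-3.63 ± 2.73, -5.74 without MOG KO replicate 3 and -1.21 without WT replicate 1). Also lower in MOG KO by value were Inpp4b, a lipid phosphatase (-0.69 ± 1.04), and Dusp2, a MAP kinase phosphatase (-1.62 ± 2.47, and 0.3 without WT replicate 3). The fitted difference of each of the 14 activating and other negative genes given here with a value from edgeR moved by over 1.5 times when 1 library was left out.

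The 10 regulators are protein-coding genes, with positions here from GENCODE vM21 on GRCm38, the assembly that mm10 names. Ptpn22 (Entrez 19260) lies on chromosome 3 from 103859795 to 103912247, Laptm5 (16792) on chromosome 4 from 130913125 to 130936141 and Ptpn6 (15170) on chromosome 6 from 124720707 to 124738714. Csk (12988) lies on chromosome 9 from 57626646 to 57653631, Dgka (13139) on chromosome 10 from 128720134 to 128744855 and Cblb (208650) on chromosome 16 from 52031225 to 52208048. Ubash3a (328795) lies on chromosome 17 from 31207873 to 31246892 and Ptpn2 (19255) on chromosome 18 from 67665511 to 67724595. Cd5 (12507) and Cd6 (12511) lie close together on chromosome 19, from 10717116 to 10739002 and from 10789341 to 10830058.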

How the data were processed

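RNA of 500 Tregs per library was copied and amplified with the SMARTer V3 kit in 15 cycles of PCR and tagged with NexteraXT, per the labels' protocols. The authors deposited 1 table of whole-number read counts in exons per gene and 1 of the same data as RPM. Counts rescaled by their column totals matched the deposited RPM values. STAR 2.3.1, R 3.2.2 and build mm10 are named per the submitters' processing notes. The counting tool, gene models and strand setting were not given in the sources used here.

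Counts were tested with edgeR 4.0.16 (filterByExpr, TMM, robust quasi-likelihood) in R 4.3.3 across 4088 genes, with genotype alone in the model and Benjamini-Hochberg adjustment over all genes. SE is the absolute log2 fold change over the square root of F. Limma 3.58.1 (voom) and DESeq2 1.42.0 were alternatives, as were other scalings and filters, a replicate block and leaving out each library. The fit was tested on simulated data, where most planted changes went uncalled at the spread of these libraries, so 0 calls does not show that genes did not differ.

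The regulators and gene lists were chosen with earlier results of these data known. All regulators and paralogues are named. Of each of the 2 pathway lists, the 3 genes of smallest p per direction and the 4 of highest mean RPM present in all libraries are named. Outside this rule, Pag1 was picked for its known link to Csk, and Sit1 is named for its correlation with Csk. Btla and Themis are named because DESeq2 called them, and some listed genes appear as cell markers. A gene of the list of other negative regulators is counted in it and is not reported here by name.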

Additional observations from a re-analysis of the deposited data

How the results depend on the processing

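In edgeR the count of regulators past the threshold was 0 under DESeq2 size factors, no filter, a filter of 50 counts in 3 libraries and a replicate block, and without each library in turn. Limma-voom also gave 0. DESeq2 called 744 genes, 1 regulator (Ptpn22, -12.06) and 2 other listed genes, Btla and Themis, which the filter on low counts left out in edgeR. The replicate numbers were not treated as pairs, since same-numbered libraries did not deviate together (correlations -0.02, -0.0022 and -0.02). With the replicate block edgeR called 0 genes, as without it, and 143 against 209 had an unadjusted p under 0.05. On TMM-scaled counts 3 regulators had groups that did not overlap, with Cd6 added, where 4.7% of all genes tested lay above in WT and 5.58% above in MOG KO. Without WT replicate 3, an alternative added after seeing the data, there were also 3, here Ptpn22, Csk and Ptpn6. In that setting 19.9% of all genes tested did not overlap. With presence set at 3 or 30 RPM, 4 or 3 regulators were present in all libraries.

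Of 369 values of 31 named genes under the alternatives, 26 had the opposite sign, in 10 genes, and the cause was not tested. DESeq2 gave Laptm5 -0.01 and Inpp5d -0.28, and DESeq2 size factors gave Inpp5d -0.06. Limma-voom gave Dgkz 1.29, Ptprc 0.16 and Dusp2 0.01, and the replicate block gave Dgkz 0.84 and Dusp2 0.45. With 1 library left out the ranges were -0.17 to 0.53 for Laptm5, -2.02 to 8.21 for Cbl, -0.88 to 0.58 for Dgkz, -1.27 to 0.68 for Laptm4a, -0.73 to 0.02 for Cd28, -0.17 to 0.65 for Lck, -3.67 to 0.3 for Dusp2, -0.03 to 0.32 for Rasal3 and -0.35 to 1.64 for Inpp5d. The regulators with the fewest counts in a genotype were Ptpn2 (0 in WT), Ptpn22 (1 in MOG KO) and Cblb (21 in WT), which limits the precision of their ratios.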
